A study of Mus musculus with 8 samples.

Results

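Conjugating enzymes attach a polar group to a drug, hormone or waste product so that the liver can excrete it. The set described here is the genes whose array annotation carries a glutathione transferase (Gst or Mgst), UDP-glucuronosyltransferase (Ugt1 to Ugt3) or sulfotransferase (Sult1 to Sult5) symbol. A gene was taken from probe sets with that symbol alone, and where it had several, the probe set with the highest mean over all arrays stood for it. This gave 45 of the 18193 genes on the array: 20 cytosolic Gst, 3 Mgst, 10 Ugt and 12 Sult genes. After a filter on low signals 40 of them were tested among 14450 genes. Gsto2, Gstt4, Mgst2, Sult1c1 and Sult2b1 lay below the filter limit of 3.60 (log2 signal) on all 8 arrays and were not tested. The 5 probe sets that carried several symbols, among them those for the Ugt1a symbols, were not used, so no Ugt1 gene is described.

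The arrays held liver RNA of male C57BL/6 mice aged 7 to 10 weeks. The 4 groups were mice labelled Tob1 null at 24 h after removal of 2/3 of the liver, unoperated Tob1 null mice (0 h), wild type mice at 24 h and unoperated wild type mice (0 h). There were 2 arrays a group, hybridised with RNA pools of 3 animals that no other array shared, so n = 2 pools a group throughout. Tob1 encodes an antiproliferative protein that recruits the CCR4-NOT deadenylase to mRNAs, and the study asked how it restrains regrowth of the liver after surgery.

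Glutathione transferases join glutathione to electrophiles such as products of lipid peroxidation. UDP-glucuronosyltransferases, enzymes of the endoplasmic reticulum, add glucuronic acid to bilirubin, steroids, bile acids and drugs. Sulfotransferases move a sulfate group from the donor PAPS to phenols, oestrogens, thyroid hormones and hydroxysteroids. Hepatocytes hold much of the body's conjugating capacity, the nuclear receptors CAR and PXR and the stress regulator Nrf2 are known to induce many of these genes, and several differ between male and female mouse liver.

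Some measurements bear on how the arrays can be read. The brighter Tob1 probe set read 10.66 and 10.58 in null-labelled livers at 24 h, against 9.87 and 10.20 in wild type at 24 h, and 11.10 and 11.03 in null-labelled livers at 0 h, against 10.46 and 10.53 in wild type at 0 h. It was thus higher with the null label, while the dimmer probe set had lower group means there (3.31 against 4.61 at 24 h and 3.35 against 4.61 at 0 h). At 0 h the arrays of the dimmer probe set overlapped, at 2.65 and 4.06 with the null label against 5.19 and 4.02 in wild type. Whether either lies in the deleted part is not known here, so the Tob1 signal does not settle the genotype labels, and every direction between genotypes below rests on those labels. Replicate arrays correlated at 0.949 to 0.960. The log2 ratio of 3' to 5' actin signal, a sign of RNA integrity, was 1.54 and 1.59 in null-labelled livers at 0 h and between 0.91 and 1.40 in the other arrays. The summed signal of 8 hepatocyte markers lay between 15.71 and 15.83 (log2) on every array. Averaged over both genotypes, 2 of the 8 were called lower after surgery, and the 8 differences ran from -0.40 to 0.35. The summed signal of 6 stellate cell and fibroblast markers was lower after surgery. That sum was 8.74 to 8.88 in null-labelled livers at 24 h, against 9.45 to 9.85 at 0 h. In wild type it was 8.84 to 9.14 at 24 h, against 9.69 to 10.00 at 0 h. Averaged over both genotypes, 4 of these 6 markers had a negative difference and 2 a positive one. The sum of 2 red blood cell markers, carried by Alas2, was also lower after surgery, at 8.45 to 8.67 in null-labelled livers at 24 h against 9.58 to 9.86 at 0 h, and at 9.18 to 9.19 in wild type at 24 h against 10.26 to 10.29 at 0 h. It was thus lower with the null label at both times. The sum of 4 pancreas and gut markers was 10.67 to 10.74 in null-labelled livers at 24 h, against 10.24 to 10.45 at 0 h. In wild type that sum was 11.21 to 11.22 at 24 h, against 10.36 to 10.65 at 0 h. Of these 4 markers 2 were tested, and averaged over both genotypes 1 rose (log2 difference 1.01) and 1 fell (-1.30). Of 9 Kupffer cell and leucocyte markers, 2 were called higher and 3 lower averaged over both genotypes. Of 7 endothelial markers 1 was called, and of 4 bile duct markers 1, both higher. Among all genes tested 28.8% were called in that comparison. The part of RNA integrity and of these cell types in the results was not tested. In whole liver, fewer cells of a type and less RNA per cell cannot be told apart.

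One array stood apart and went against its label through members of the set. Sult2a2, a hydroxysteroid sulfotransferase, and Sult3a1, an amine sulfotransferase, are known to be expressed mainly in female mouse liver. Sult2a2 read 7.50 and 2.57 in null-labelled livers at 24 h, against 9.90 and 2.53 at 0 h, while the wild type arrays read 2.87 and 2.76 at 24 h, against 1.74 and 3.08 at 0 h. Sult3a1 read 7.08 and 2.74 in null-labelled livers at 24 h, against 9.24 and 3.47 at 0 h, and 1.46 and 2.31 in wild type at 24 h, against 1.91 and 2.35 at 0 h. Both genes were thus high in the null-labelled arrays numbered 1 and below the filter limit on the other 6 arrays. Xist, the RNA of the inactive X chromosome, read 7.94 on the null-labelled array numbered 1 at 0 h and 3.00 to 4.48 on the others, a gene chosen after its values were seen. The Y-linked Eif2s3y, chosen in the same way, was lowest on that array (8.02, against 8.53 to 9.51). Of the further Y-linked genes read, Uty was also lowest there (6.27, against 6.72 to 7.25). Kdm5d was not: it read 5.76 there and 5.53 to 6.66 on the others. That array was also the highest of the 8 for 7 of 10 listed female-biased liver genes outside the set, such as Cyp2b9 at 8.09 against 3.38 to 6.02 elsewhere. All samples are labelled male. Counts of calls in the average response and between unoperated livers are given with and without that array. Sult2a2 and Sult3a1, which did not pass the filter without it, were then not tested.

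**Figure D1:**
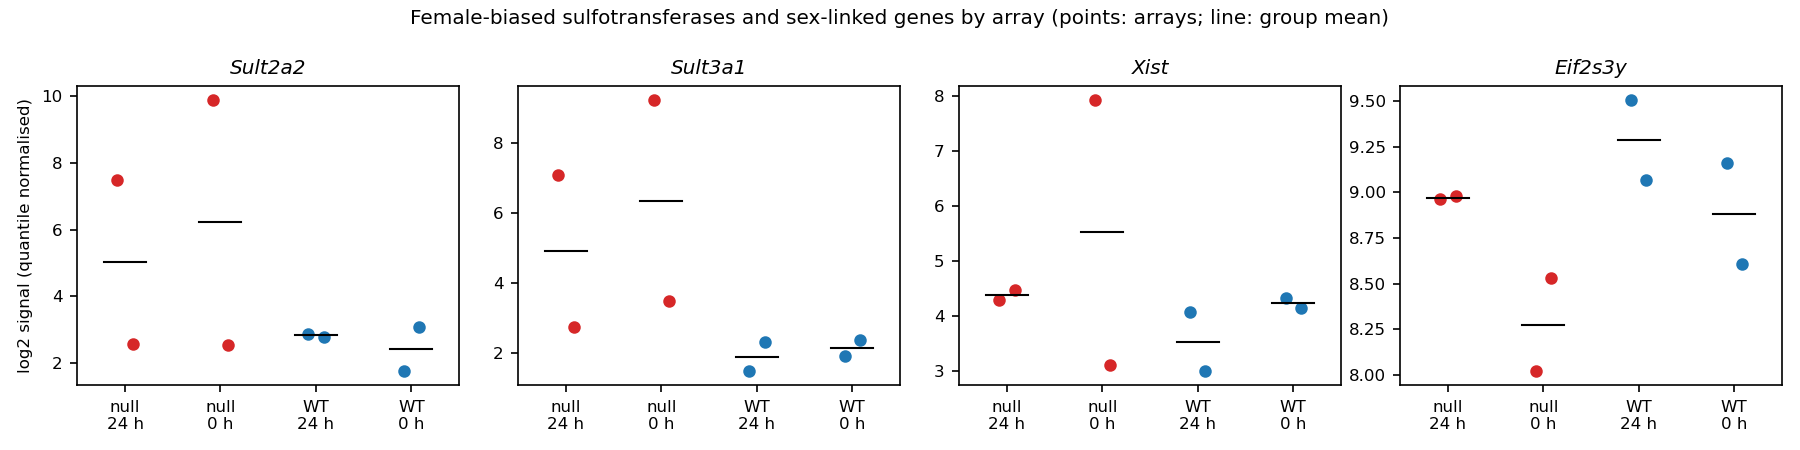
Log2 signal (quantile normalised) of Sult2a2, Sult3a1, Xist and Eif2s3y by array, with null-labelled groups in red and wild type (WT) in blue, points for arrays and lines for group means. The first null-labelled array at 0 h reads 9.90 for Sult2a2, 9.24 for Sult3a1 and 7.94 for Xist, and is lowest for Eif2s3y at 8.02.

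After partial hepatectomy most of the conjugating enzyme genes that changed were lower. Averaged over both genotypes (4 arrays at 24 h against 4 at 0 h), 4 members were higher and 18 lower of 40 (limma, adjusted p under 0.05 by Benjamini-Hochberg across the 14450 genes). Of all genes tested 28.8% passed in this comparison, 13.8% higher and 15% lower. The median log2 difference of the 40 members was -0.57, against -0.04 over all genes tested. With the 5 filtered members included in a fit without the filter, 21 of 45 passed, against 17.7% of all genes, and the median was -0.51. For 18 members all 4 arrays at 24 h lay below all 4 at 0 h, and for 3 members above, against 16.5% and 15% of all genes tested. Without the array described above, 19 of 38 members passed (3 higher, 16 lower), against 15.3% of all genes: Gsta2, Gstt2 and Ugt2b5 were no longer called. Of the 22 members called, Gsta2, Gsta3, Gstt2, Sult1a1 and Ugt2b5 lost their call when one or more single arrays were left out.

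**Figure D2:**
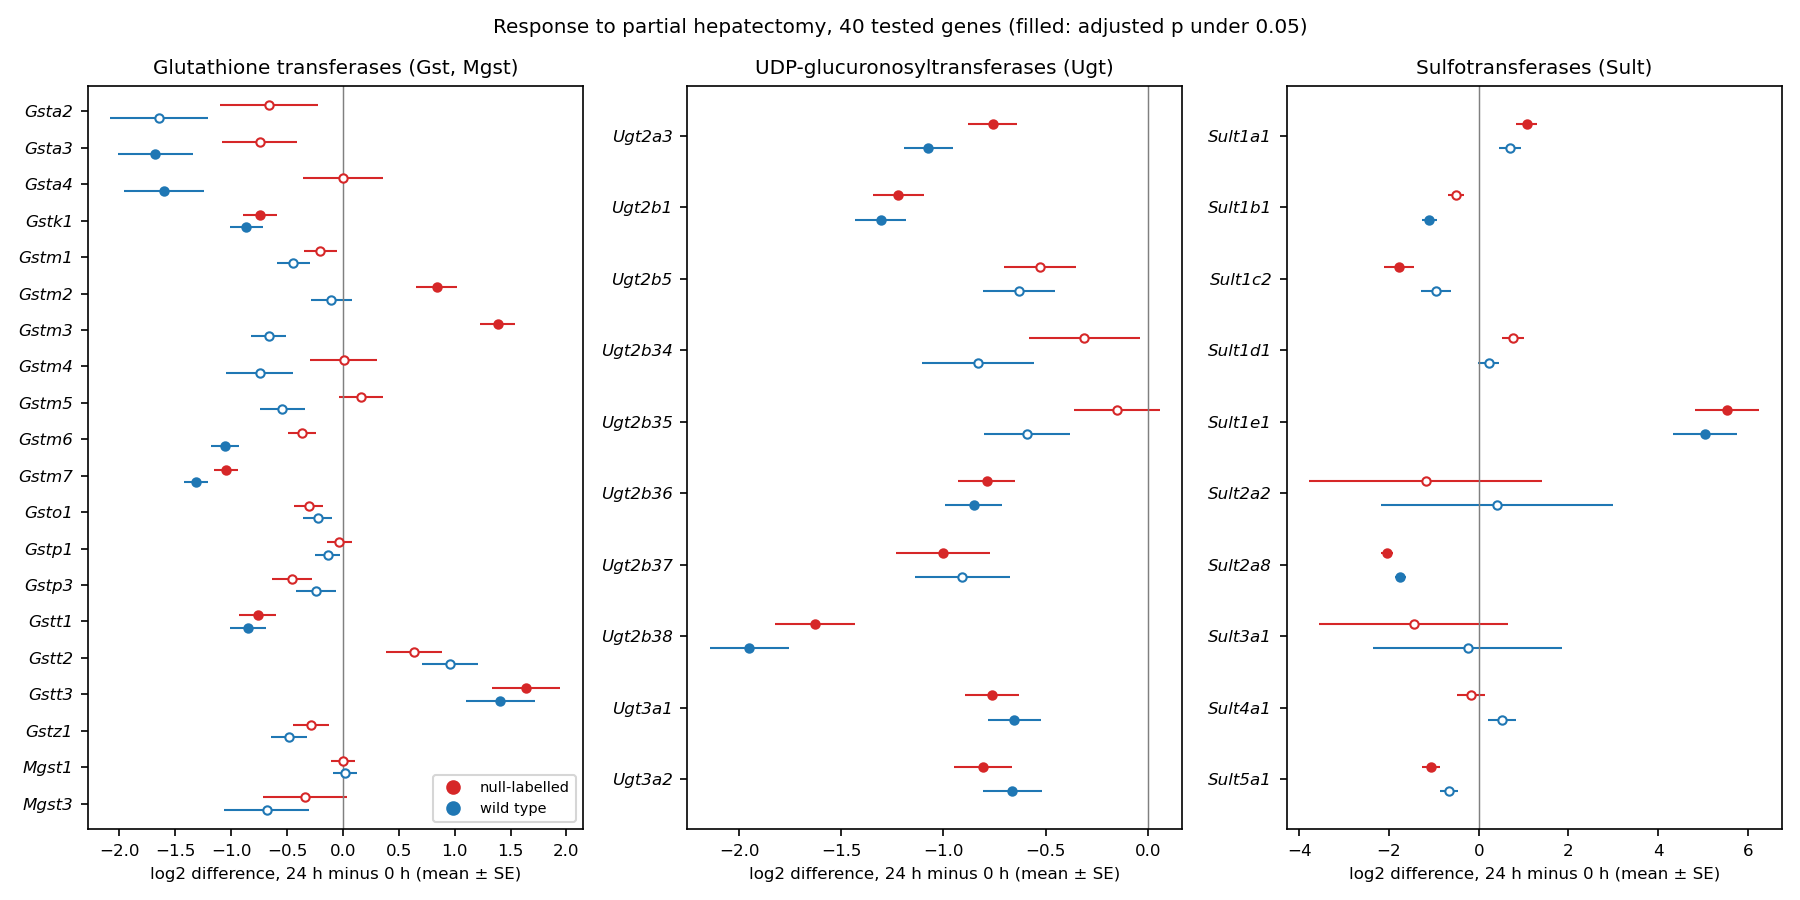
Log2 difference between 24 h and 0 h (mean ± SE, 2 arrays a group) for the 40 tested members by family, null-labelled livers in red above wild type livers in blue, with filled points where the adjusted p is under 0.05 and a separate axis range in each panel. All 10 Ugt genes lie left of 0 in both genotypes, and Sult1e1 lies farthest right. Its 0 h arrays are below the filter limit, so its points are fitted values and not folds. With 0 h arrays at that limit, the group mean rose at least 37.3-fold in null-labelled and at least 18.5-fold in wild type livers.

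Of the Ugt genes 8 of 10 fell and none rose, where 15% of all genes fell and 13.8% rose. All 10 had a negative difference (median -0.78, range -1.79 to -0.37). The same 10 negative differences were found with the deposited values, with median centring and with damped low signals. Ugt2b enzymes glucuronidate steroids, bile acids and drugs. Ugt2b38 read 7.50 and 7.62 in null-labelled livers at 24 h, against 8.98 and 9.40 at 0 h, and 7.26 and 7.60 in wild type livers at 24 h, against 9.32 and 9.43 at 0 h. Its level was thus 3.46-fold lower after surgery (log2 difference -1.79 ± 0.14, SE), with no overlap between times (limma adjusted p = 0.00234). Ugt2b1 read 11.38 and 11.43 in null-labelled livers at 24 h, against 12.52 and 12.72 at 0 h, and 11.27 and 11.22 in wild type livers at 24 h, against 12.60 and 12.52 at 0 h. The difference was -1.26 ± 0.09 (limma adjusted p = 0.00208).

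The other Ugt2 genes had smaller differences. Ugt2b37 read 6.20 and 6.69 in null-labelled livers at 24 h, against 7.28 and 7.62 at 0 h, and 6.26 and 6.62 in wild type livers at 24 h, against 7.41 and 7.27 at 0 h. Ugt2a3 read 10.15 and 10.23 in null-labelled livers at 24 h, against 10.92 and 10.98 at 0 h, and 9.82 and 9.99 in wild type at 24 h, against 10.97 and 11.00 at 0 h. For both, all arrays at 24 h lay below all at 0 h, with differences of -0.95 ± 0.16 and -0.92 ± 0.08. Ugt2b36 read 11.55 and 11.53 in null-labelled livers at 24 h, against 12.27 and 12.39 at 0 h, and 11.23 and 11.50 in wild type at 24 h, against 12.15 and 12.28 at 0 h. Ugt2b5, which had the highest mean of the Ugt2 genes, read 12.26 and 12.02 in null-labelled livers at 24 h, against 12.58 and 12.75 at 0 h, and 11.77 and 12.16 in wild type at 24 h, against 12.55 and 12.62 at 0 h. The differences were -0.82 ± 0.10 for Ugt2b36 and -0.58 ± 0.13 for Ugt2b5, again with no overlap between times. Ugt2b34 and Ugt2b35 had differences of -0.57 ± 0.19 and -0.37 ± 0.15 and did not pass (limma adjusted p = 0.0738 and 0.112). A dimmer Ugt2b34 probe set gave -0.48 for the average (limma adjusted p = 0.251 among all probe sets). Its difference was 0.06 in null-labelled and -1.03 in wild type livers, so the direction in null-labelled livers depends on the probe set.

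Both Ugt3 genes fell. Their human counterparts are known to use sugars other than glucuronic acid. Ugt3a1 read 8.59 and 8.45 in null-labelled livers at 24 h, against 9.19 and 9.38 at 0 h, and 8.87 and 8.98 in wild type livers at 24 h, against 9.59 and 9.57 at 0 h (difference -0.71 ± 0.09). Ugt3a2 read 10.60 and 10.44 in null-labelled livers at 24 h, against 11.35 and 11.30 at 0 h, and 10.65 and 10.93 in wild type livers at 24 h, against 11.49 and 11.42 at 0 h (difference -0.73 ± 0.10). Within each genotype the 24 h arrays of both genes lay below the 0 h arrays.

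The promoters of the Ugt2b genes are shown because these genes lie together on chromosome 5, 5 of the 7 fell, and all share a short motif. RefSeq promoter windows (GRCm38.p6, from 250 bases before to 50 after the annotated start) were at hand for 40 of the 45 members, some with more than 1 window (52 in all). Those of Gsta4, Gstt2, Sult2a2, Sult4a1 and Ugt3a2 were not. The motif searched, on both strands, was GTTA followed after any 5 bases by TAAC, the outer letters of the palindrome bound by HNF1, a hepatocyte transcription factor known to bind UGT2B promoters in human. It was chosen after the sequences were seen. All 7 Ugt2b promoters held it, with its first base 61 to 89 bases before the start. It was also in the promoter of Ugt3a1, 130 bases before the start, and not in that of Ugt2a3. In all, 8 of the 52 promoters of members held it (15.4%), against 0.332% of 32851 promoters of all genes. The Ugt2b genes are duplicates of one another, so their promoters are not independent sequences. Each line below runs 5' to 3' on the strand of its gene, from 100 bases before the annotated start to 20 after it, and capitals mark the motif. In order they are chr5:87424184-87424303, chr5:86926484-86926603, chr5:87254769-87254888, chr5:87092536-87092655, chr5:87140321-87140440, chr5:86906918-86907037 and chr5:87337176-87337295 on the minus strand, and chr5:87000760-87000879 on the plus strand.
Ugt2b38: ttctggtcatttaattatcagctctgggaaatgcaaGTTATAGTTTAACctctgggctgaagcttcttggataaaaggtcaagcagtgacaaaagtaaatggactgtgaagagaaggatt
Ugt2b1: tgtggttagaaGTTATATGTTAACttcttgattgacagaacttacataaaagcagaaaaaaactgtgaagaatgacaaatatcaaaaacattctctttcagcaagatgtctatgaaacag
Ugt2b37: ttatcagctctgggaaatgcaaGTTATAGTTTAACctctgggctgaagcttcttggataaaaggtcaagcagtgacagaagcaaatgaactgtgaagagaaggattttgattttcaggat
Ugt2b36: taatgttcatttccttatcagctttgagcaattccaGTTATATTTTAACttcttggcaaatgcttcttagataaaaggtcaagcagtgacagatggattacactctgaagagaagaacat
Ugt2b5: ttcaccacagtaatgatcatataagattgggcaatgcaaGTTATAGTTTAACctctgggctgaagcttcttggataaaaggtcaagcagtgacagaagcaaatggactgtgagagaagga
Ugt2b34: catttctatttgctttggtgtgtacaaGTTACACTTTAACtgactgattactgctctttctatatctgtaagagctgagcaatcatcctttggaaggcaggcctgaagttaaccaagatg
Ugt2a3: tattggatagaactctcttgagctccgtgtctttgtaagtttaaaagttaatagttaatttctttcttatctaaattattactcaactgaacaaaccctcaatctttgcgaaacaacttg
Ugt2b35: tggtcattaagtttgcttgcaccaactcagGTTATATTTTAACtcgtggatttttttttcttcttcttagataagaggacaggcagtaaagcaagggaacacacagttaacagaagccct

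The motif was present both in the 5 Ugt2b genes that fell and in Ugt2b34 and Ugt2b35, which did not pass. Ugt2a3, which lacks these letters in its window, fell as well. A match is a run of letters and not a measured binding site.

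**Figure D3:**
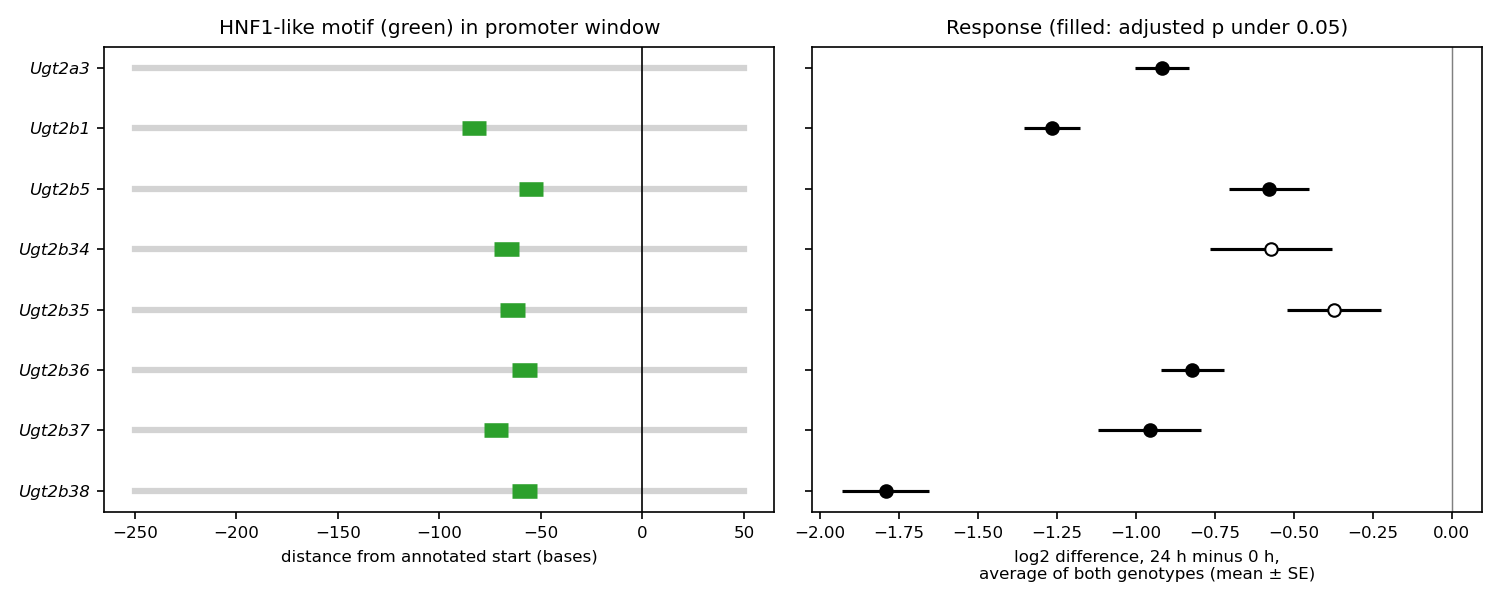
Left, position in bases from the annotated start of the HNF1-like motif (green) in the promoter window (grey) of the 8 Ugt2 genes. Right, log2 difference between 24 h and 0 h averaged over both genotypes (mean ± SE), filled where the adjusted p is under 0.05. The motif starts 61 to 89 bases before the start in the 7 Ugt2b genes, and all 8 differences lie below 0, from -1.79 to -0.37.

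Among the cytosolic glutathione transferases 2 rose and 6 fell of 18, where 13.8% of all genes rose and 15% fell. The number of rises is thus near the share of all genes. The classes differed in what they did. In the alpha class, whose members detoxify lipid peroxidation products, Gsta2 and Gsta3 fell. Gsta3 read 11.46 and 11.23 in null-labelled livers at 24 h, against 12.01 and 12.16 at 0 h, and 10.08 and 11.15 in wild type at 24 h, against 12.28 and 12.30 at 0 h. All 4 arrays at 24 h lay below those at 0 h (difference -1.21 ± 0.24, limma adjusted p = 0.0158), and the wild type arrays at 24 h differed from each other by more than those of any other group. Gsta2 read 9.50 and 10.40 in null-labelled livers at 24 h, against 10.66 and 10.56 at 0 h, and 7.94 and 8.65 in wild type at 24 h, against 9.48 and 10.40 at 0 h. Its arrays overlapped between times across genotypes, and the average difference was -1.15 ± 0.31 (limma adjusted p = 0.0381).

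Gsta4, which conjugates 4-hydroxynonenal, read 9.05 and 9.94 in null-labelled livers at 24 h, against 9.42 and 9.55 at 0 h, and 7.72 and 8.19 in wild type at 24 h, against 9.24 and 9.87 at 0 h. It fell in wild type livers (-1.60 ± 0.36, limma adjusted p = 0.0481), where the times did not overlap. In null-labelled livers the times overlapped and the difference was 0.00 ± 0.36. The difference between these responses, 1.61 ± 0.51, did not pass (limma adjusted p = 0.556).

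In the mu class Gstm7 and Gstm6 fell. Gstm7 read 7.96 and 7.96 in null-labelled livers at 24 h, against 9.05 and 8.96 at 0 h, and 7.70 and 7.71 in wild type at 24 h, against 9.01 and 9.03 at 0 h. The replicates nearly coincided, and the gene was 2.27-fold lower after surgery (-1.18 ± 0.08, limma adjusted p = 0.00208). A dimmer probe set of Gstm7 gave 0.05 for the same difference (limma adjusted p = 0.757 among all probe sets), so the probe sets of this gene disagree. Gstm6 read 8.71 and 8.77 in null-labelled livers at 24 h, against 9.06 and 9.14 at 0 h, and 7.89 and 8.07 in wild type at 24 h, against a mean of 9.04 ± 0.05 (SD, n = 2) at 0 h (difference -0.71 ± 0.09). Gstm1, which had the highest mean of the class, read 12.88 and 12.80 in null-labelled livers at 24 h, against 13.03 and 13.06 at 0 h, and 11.98 and 12.24 in wild type at 24 h, against 12.43 and 12.67 at 0 h. Its difference of -0.32 ± 0.10 did not pass (limma adjusted p = 0.0657). Of its 3 dimmer probe sets, tested among all probe sets, 1 passed (-0.53, limma adjusted p = 0.0415) and the other two did not (-0.41 each, adjusted p = 0.0538 and 0.0615).

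The theta class moved in both directions. Gstt3 read 9.75 and 9.99 in null-labelled livers at 24 h, against 8.62 and 7.84 at 0 h, and 8.93 and 9.40 in wild type at 24 h, against 7.59 and 7.93 at 0 h. It rose 2.87-fold with no overlap between times (1.52 ± 0.22, limma adjusted p = 0.0068). Gstt2 read 10.47 and 10.67 in null-labelled livers at 24 h, against 10.03 and 9.83 at 0 h, and 9.79 and 10.13 in wild type at 24 h, against 8.68 and 9.32 at 0 h. It rose by less (0.80 ± 0.18, limma adjusted p = 0.0217), with the times separate in each genotype. Gstt1 fell. It read 10.21 and 10.30 in null-labelled livers at 24 h, against 11.17 and 10.87 at 0 h, and 9.86 and 10.13 in wild type at 24 h, against 10.79 and 10.91 at 0 h (difference -0.81 ± 0.12).

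Gstk1, the mitochondrial and peroxisomal kappa form, fell by a like amount. It read 9.49 and 9.38 in null-labelled livers at 24 h, against 10.21 and 10.15 at 0 h, and 9.08 and 9.42 in wild type at 24 h, against 10.11 and 10.12 at 0 h (difference -0.80 ± 0.10, limma adjusted p = 0.00547). The pi, omega and zeta forms did not pass. Gstp1, a form known to be higher in male than in female mouse liver, read 13.20 to 13.40 on all 8 arrays. Gstz1, which isomerises maleylacetoacetate in tyrosine breakdown, read 10.37 and 10.46 in null-labelled livers at 24 h, against 10.69 and 10.70 at 0 h, and 10.31 and 10.69 in wild type at 24 h, against 11.07 and 10.90 at 0 h (difference -0.38 ± 0.11, limma adjusted p = 0.0519). Gsto1, which reduces dehydroascorbate, read 9.73 to 9.93 at 24 h and 10.01 to 10.19 at 0 h (difference -0.26 ± 0.09, limma adjusted p = 0.0792). A further Gsto1 probe set gave -0.45 and passed when all probe sets were tested (limma adjusted p = 0.0194).

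Neither measured microsomal transferase passed. Mgst1, a membrane enzyme that also reduces lipid peroxides, read 13.21 to 13.27 on all 8 arrays. This is near the top of the scale: 22 to 29 of 45037 probe sets read higher on each array, the highest at 13.88. Its dimmer probe set was higher at 24 h (0.85, limma adjusted p = 0.00717 among all probe sets). Mgst3 had a difference of -0.51 ± 0.27.

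Of the 10 sulfotransferases 2 rose and 4 fell, where 13.8% of all genes rose and 15% fell. The number of rises is not far from the share of all genes. Sult1e1, which inactivates oestrogens, read 7.75 and 9.89 in null-labelled livers at 24 h, against 3.17 and 3.40 at 0 h, and 8.41 and 7.20 in wild type at 24 h, against 2.78 and 2.76 at 0 h. All 4 unoperated arrays lay below the filter limit, so only a bound on the rise is given. Against the limit of 3.60, the group mean of Sult1e1 at 24 h was 37.3-fold higher in null-labelled livers and 18.5-fold higher in wild type. These folds are lower bounds on the rise of the group means and not of each array, as the arrays at 24 h differed. Sult1e1 passed the filter only through its 4 arrays at 24 h, where it is high. The fit of the measured values gave a limma adjusted p = 0.00307 for the average, which is no support apart from those arrays. With 16 added to the linear signals, which damps low values, the log2 differences were 4.20 and 3.40. Sult2a8, a liver enzyme known in mouse to sulfate bile acids, read 9.82 and 9.92 in null-labelled livers at 24 h, against 11.92 and 11.93 at 0 h, and 10.16 and 10.38 in wild type at 24 h, against 12.04 and 11.99 at 0 h. It fell 3.72-fold with close replicates (-1.90 ± 0.09, limma adjusted p = 0.00103).

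Sult1a1, which sulfates phenols, read 11.92 and 11.95 in null-labelled livers at 24 h, against 11.09 and 10.64 at 0 h, and 11.77 and 11.17 in wild type at 24 h, against 10.78 and 10.78 at 0 h. It rose by 0.88 ± 0.17 on the log2 scale with no overlap between times (limma adjusted p = 0.015). Sult1b1, which acts on thyroid hormones, read 7.38 and 7.83 in null-labelled livers at 24 h, against 8.07 and 8.16 at 0 h, and 6.98 and 7.07 in wild type at 24 h, against 8.15 and 8.09 at 0 h. Sult5a1 read 6.42 and 6.53 in null-labelled livers at 24 h, against 7.74 and 7.35 at 0 h, and 6.59 and 6.17 in wild type at 24 h, against 7.16 and 6.93 at 0 h. Both fell (-0.80 ± 0.12 and -0.86 ± 0.15), and for neither did the times overlap. Sult1c2 read 3.75 and 3.71 in null-labelled livers at 24 h, against 5.74 and 5.28 at 0 h, and 3.73 and 3.56 in wild type at 24 h, against 4.11 and 5.09 at 0 h (difference -1.37 ± 0.24). Its levels at 24 h lay at the filter limit. Sult1d1, which sulfates catecholamines, and Sult4a1, a form best known from brain, did not pass, with differences of 0.49 ± 0.17 and 0.17 ± 0.22. Sult4a1 read 4.38 and 3.40 in null-labelled livers at 24 h, against 4.17 and 3.96 at 0 h, and 4.41 and 4.37 in wild type at 24 h, against 3.94 and 3.81 at 0 h.

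**Figure D4:**
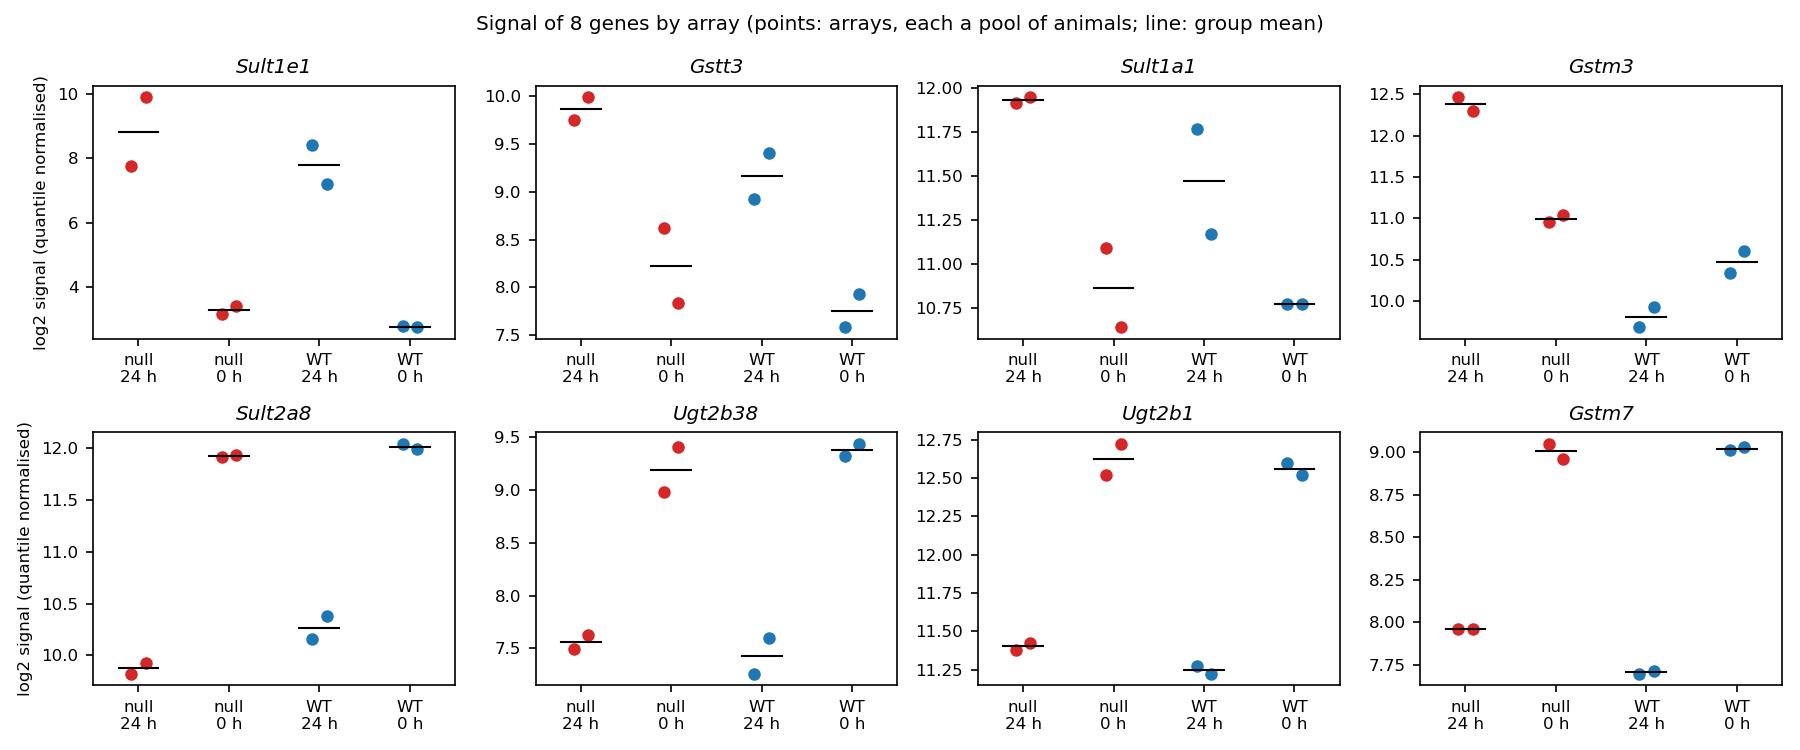
Log2 signal (quantile normalised) of 8 members by array, points for arrays (pools of animals), lines for group means, null-labelled groups in red and wild type (WT) in blue. In the top row Sult1e1, Gstt3 and Sult1a1 are higher at 24 h in both genotypes, while Gstm3 reads 12.46 and 12.30 in null-labelled livers at 24 h, against 9.68 and 9.93 in wild type at 24 h. In the bottom row Sult2a8, Ugt2b38, Ugt2b1 and Gstm7 are lower at 24 h in both genotypes.

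Within each genotype the responses were called on 2 arrays against 2. In null-labelled livers 5 members rose and 13 fell of 40, where 14.7% of all genes passed (7.45% higher, 7.23% lower), and the median of the members was -0.41 against -0.04 over all genes. In wild type livers 2 rose and 14 fell, where 9.21% of all genes passed (4.13% higher, 5.08% lower), and the median was -0.66 against -0.03. Sult1e1 and Gstt3 rose in both genotypes, and 10 members fell in both. The 10 were Gstk1, Gstm7, Gstt1, Sult2a8, Ugt2a3, Ugt2b1, Ugt2b36, Ugt2b38, Ugt3a1 and Ugt3a2. Called in null-labelled livers and not in wild type were the rises of Gstm3, Gstm2 and Sult1a1 and the falls of Sult1c2, Sult5a1 and Ugt2b37. Called in wild type and not in null-labelled livers were the falls of Gsta3, Gsta4, Gstm6 and Sult1b1. No member passed in opposite directions. These counts depend on single arrays. Leaving out one or the other null-labelled array at 0 h removed nearly all calls of the null-labelled response, among members and over all genes. Leaving out one or the other null-labelled array at 24 h removed fewer, again among members and over all genes. Leaving out one or the other wild type array at 0 h removed all member calls of the wild type response. Nearly all calls over all genes were lost as well. Leaving out wild type array 1 of the 24 h group removed nearly all calls, among members and over all genes. All groups share one estimate of the spread, so leaving out arrays of the other genotype also moved the counts, of members and of all genes. With single arrays left out, the median of the members ran from -0.41 to -0.33 in the null-labelled response. In the wild type response it ran from -0.82 to -0.44. Median centring, which moves the median of all genes in the null-labelled response to 0.12, left 5 rises and 6 falls there.

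When the responses were tested against each other, the fit called 0 of 40 members and 0% of all genes (5 of 40 members and 1244 of 14450 genes at an unadjusted p under 0.05). The members with the smallest p were Gstm3 (difference between responses 2.05 ± 0.22, limma adjusted p = 0.301), Gstm6 (0.69 ± 0.17, adjusted p = 0.531) and Gstm2 (0.94 ± 0.26, adjusted p = 0.543). Calls that differ between the genotypes above are therefore not shown to be different responses.

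Between the genotypes at 24 h, 1 member passed, and it was the only one of the 14450 genes to do so (0.00692%). Gstm3, a mu class glutathione transferase, read 12.46 and 12.30 in null-labelled livers at 24 h, against 9.68 and 9.93 in wild type livers at 24 h. In unoperated livers it read 10.95 and 11.04 with the null label, against 10.34 and 10.60 in wild type. The null-labelled arrays lay above the wild type arrays at both times. At 24 h the gene was 5.96-fold higher in null-labelled livers (log2 difference 2.58 ± 0.16, limma adjusted p = 0.0472). The probe set is of a kind that can match several near-identical transcripts, and mu class genes are close copies, so its signal may hold other members. A further Gstm3 probe set read 10.84 and 10.83 in null-labelled livers at 24 h, against 7.46 and 7.78 in wild type at 24 h, and 9.03 and 9.13 in null-labelled livers at 0 h, against 8.23 and 8.59 in wild type at 0 h. It went the same way.

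The Gstm3 call sits close to the threshold. Leaving out any one of the 8 arrays kept the difference between 2.45 and 2.69 while the adjusted p lay between 0.0678 and 0.190, the highest being without wild type array 1 of the 0 h group. Without the null-labelled array at 0 h that stood apart it was 0.111. The response of Gstm3 was a rise of 1.39 ± 0.16 in null-labelled livers (limma adjusted p = 0.0114) and a difference of -0.66 ± 0.16 in wild type (adjusted p = 0.0546). Averaged over both times, Gstm3 was 1.55 ± 0.11 higher in null-labelled livers (limma adjusted p = 0.0354), 1 of 5 genes called (0.0346%, with 0.0208% higher and 0.0138% lower). That call, too, was lost without any single array, with adjusted p between 0.0868 and 0.182.

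The other alpha and mu class members lay on the same side at 24 h. In all 3 Gsta and all 7 Gstm genes both null-labelled arrays at 24 h read above both wild type arrays, under quantile normalisation, deposited values, median centring and damped low signals alike. These classes were put together after their values were seen. Over all 40 members this held for 24, and the opposite for 3, against 20.9% and 19.7% of all genes. The other 9 differed by 0.25 to 1.65 and none passed: Gsta2 by 1.65 ± 0.44 (adjusted p = 0.282), Gsta4 by 1.54 ± 0.36 (0.253) and Gstm2 by 1.24 ± 0.18 (0.155) in the limma fit. Gstm2 read 11.30 and 11.03 in null-labelled livers at 24 h, against 9.81 and 10.04 in wild type at 24 h, and 10.34 and 10.31 in null-labelled livers at 0 h, against 9.84 and 10.21 in wild type at 0 h. The median difference at 24 h was 0.37 over the 40 members and 0.01 over all genes, and 15 of 40 members had an unadjusted p under 0.05, against 11.7% of all genes. Of 18 listed Nrf2 target genes outside the set none passed in this comparison, with a median of 0.54. Nfe2l2, the gene of Nrf2, differed by 0.74 ± 0.13 (limma adjusted p = 0.192). Whether Nrf2 has a part in the differences of the alpha and mu class genes was not tested.

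In unoperated livers 0 of 40 members and 0% of all genes passed between the genotypes (4 members and 1390 of 14450 genes at an unadjusted p under 0.05). The smallest p values were those of Gstt2 (0.93 ± 0.25 higher in null-labelled livers, limma adjusted p = 0.413), Gstm3 (0.53 ± 0.16, adjusted p = 0.433) and Gstm1 (0.49 ± 0.15, adjusted p = 0.435). Without the array that stood apart the differences were 0.83 ± 0.32, 0.56 ± 0.21 and 0.52 ± 0.21, and 0 of 38 members and 0% of all genes passed (3 members and 862 of 14307 genes at an unadjusted p under 0.05). The largest differences, 4.22 ± 2.10 for Sult3a1 and 3.81 ± 2.59 for Sult2a2, came from the one array described above.

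**Figure D5:**
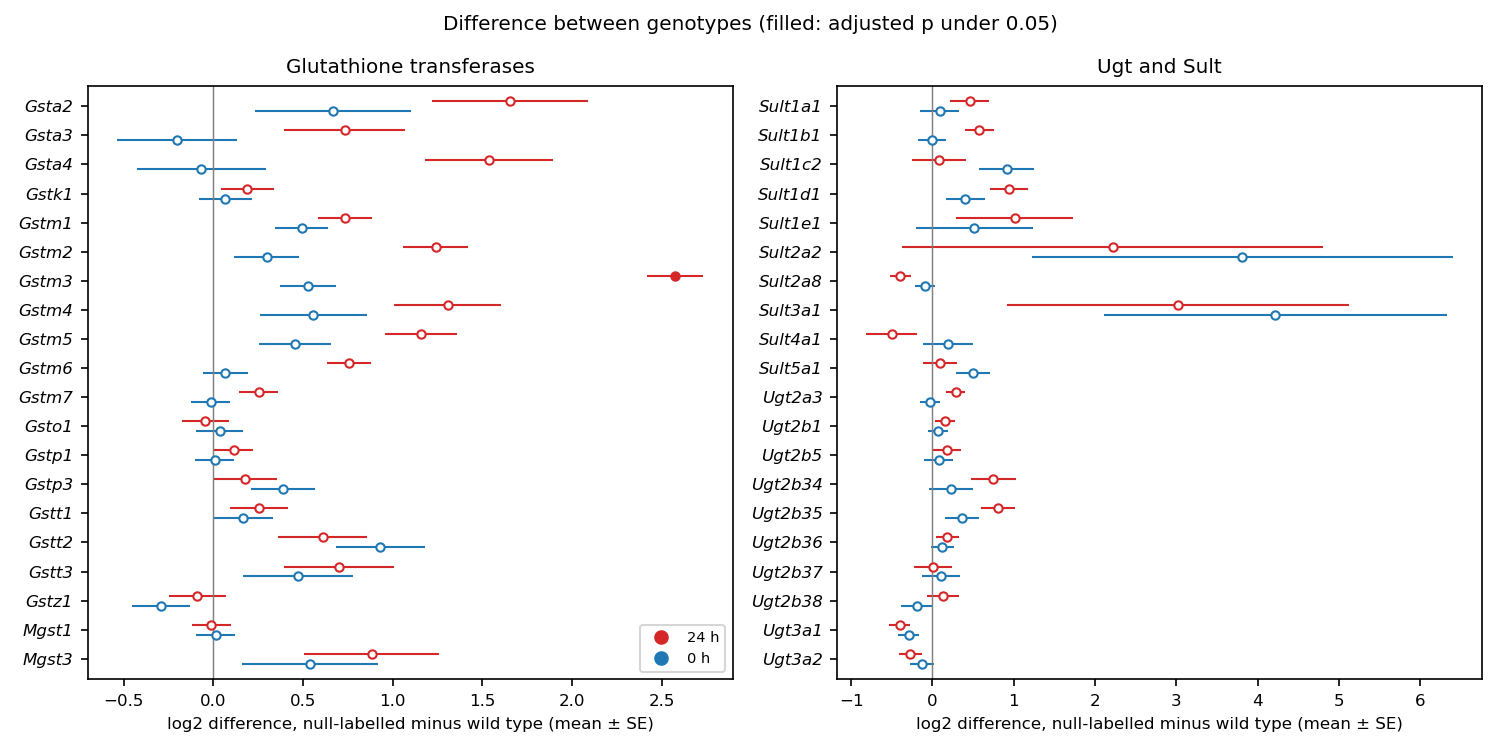
Log2 difference between null-labelled and wild type livers (mean ± SE, 2 arrays a group) for the 40 tested members, at 24 h in red above 0 h in blue, filled where the adjusted p is under 0.05. Gstm3 at 24 h (2.58) is the filled point, all Gsta and Gstm genes lie right of 0 at 24 h, and Sult2a2 and Sult3a1 have the widest errors.

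The antioxidant response element, the sequence Nrf2 binds, was searched as TGACNNNGC on both strands. It was found in 4 of the 52 promoters of members (7.69%, those of Gsta3, Gstm5, Gstm7 and Mgst1), against 12.4% of all promoters. It was not found in the window of Gstm3. Only the short promoter windows described above were searched, so an element farther from the start would have been missed. A window without a match therefore does not show that its gene lacks the element. Here too, a match is a run of letters and not a measured binding site. The stretches are shown because they belong to the classes whose null-labelled arrays were higher at 24 h. Capitals mark the element. Gstm3 runs from 100 bases before its start to 20 after it (chr3:107969155-107969274, minus strand), and the others are the surroundings of the element: chr1:21240434-21240503 and chr3:107895782-107895851 on the plus strand and chr3:107931704-107931773 on the minus strand (GRCm38.p6, RefSeq).
Gstm3: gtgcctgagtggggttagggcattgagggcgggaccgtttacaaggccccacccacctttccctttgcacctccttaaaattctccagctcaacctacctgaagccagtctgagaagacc
Gsta3: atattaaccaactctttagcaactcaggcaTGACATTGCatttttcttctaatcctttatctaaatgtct
Gstm5: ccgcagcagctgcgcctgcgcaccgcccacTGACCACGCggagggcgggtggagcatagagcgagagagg
Gstm7: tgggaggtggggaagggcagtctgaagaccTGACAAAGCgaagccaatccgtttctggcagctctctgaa

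Of the genes with the element in their window, Gsta3 and Gstm7 fell after surgery. Gstm5 (difference -0.19 ± 0.14) and the brighter probe set of Mgst1 did not pass.

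Genes that supply or regulate conjugation were read from lists, as counts in the response averaged over both genotypes, beside 28.8% of all genes. Of 18 regulators 2 rose and 5 fell. Cebpa, a transcription factor of mature hepatocytes, fell by 1.68 ± 0.18 (limma adjusted p = 0.00377) and Foxa2 by 0.52 ± 0.09, Nfe2l2 rose by 0.62 ± 0.10, and Bach1, a repressor of Nrf2 targets, fell by 0.38 ± 0.08. Of 18 genes of glutathione supply and turnover 4 rose and 3 fell. Cbs, which starts the making of cysteine from homocysteine, fell by 1.22 ± 0.18, while Gsr, which restores oxidised glutathione, rose by 0.60 ± 0.10, Ggct by 0.93 ± 0.17 and Glrx by 0.75 ± 0.14. Of 9 genes of UDP-glucuronic acid supply and turnover 1 rose (Uxs1, which makes UDP-xylose from UDP-glucuronic acid, by 0.85 ± 0.09) and 1 fell (Pgm1, by 0.39 ± 0.08). Of 10 genes of PAPS supply and sulfate turnover 1 rose and 3 fell. The PAPS synthases moved apart: Papss2 fell by 0.99 ± 0.14 and Papss1 rose by 0.55 ± 0.12, while Mpst fell by 1.30 ± 0.25 and Suox, sulfite oxidase, by 0.88 ± 0.18.

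Of 15 transporters of conjugates 5 fell and 0 rose, among them Slco1a1 (-1.73 ± 0.12), the sodium-dependent bile acid importer Slc10a1 (-0.90 ± 0.14), the bile salt exporter Abcb11 (-1.72 ± 0.29) and Abcc6 (-2.17 ± 0.37). Of 14 enzymes that conjugate with acetyl, methyl or amino acid groups 1 rose and 6 fell. Nnmt, which methylates nicotinamide, rose by 1.52 ± 0.09, whereas Inmt (-2.41 ± 0.20), Keg1 (-3.61 ± 0.45) and Hnmt, which methylates histamine (-1.09 ± 0.16), fell. Of 11 targets of CAR and PXR 2 rose and 4 fell, with Cyp2b10 at 1.34 ± 0.14, Alas1 at 0.95 ± 0.15, Ces2a at -0.86 ± 0.11 and Cyp2c37 at -0.93 ± 0.13. Of 18 Nrf2 targets 6 rose and 0 fell, among them Srxn1 by 2.12 ± 0.34, Hmox1 by 1.37 ± 0.22, Gsr as above and Txnrd1 by 0.57 ± 0.11.

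Of 13 male-biased liver genes outside the set 12 fell and 0 rose (median -1.26, lowest -4.11). Those of smallest p were Slco1a1, Serpina4-ps1 (-2.55 ± 0.20), Cyp2u1 (-1.82 ± 0.15) and Susd4 (-1.26 ± 0.11). Of 9 female-biased genes none passed. No gene of any of these lists passed between the genotypes. Without the array that stood apart, 15.3% of all genes passed in the average response, and the counts were 1 rise and 2 falls of regulators, 3 and 2 of glutathione supply, 1 and 0 of UDP-glucuronic acid supply, 0 and 1 of PAPS supply, 0 and 4 of transporters, 1 and 5 of other conjugating enzymes, 2 and 3 of CAR and PXR targets, 3 and 0 of Nrf2 targets, 0 and 11 of male-biased and 1 and 0 of female-biased genes. Of the genes named, Bach1, Pgm1, Papss1, Mpst, Suox and Txnrd1 were then no longer called.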

How the data were processed

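The deposited values, 1 per probe set and array, are on a log2 scale, as read from the values: the authors' algorithm and the genome build are not given in the sources used here. Their linear form had a 2% trimmed mean of 94.4 to 99.3 on every array. The deposited log2 values of 45101 probe sets (64 controls left out) were quantile normalised, and probe sets above the 40th percentile of their array on at least 2 of 8 arrays were kept. With 1 probe set per gene, that of highest mean among those kept, 14450 genes were fitted together by limma 3.58.1 in R 4.3.3, with a mean per group and moderated variances (degrees of freedom 4 residual and 2.01 from the prior). Tests are two-sided and adjusted by Benjamini-Hochberg over all genes. Genes are called at an adjusted p under 0.05.

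Symbols come from GEO's annotation of the array, and all 45 member symbols matched RefSeq. Promoters are from RefSeq (GRCm38.p6). The members and lists were chosen with earlier results of these data known. Members called in any comparison, the brightest of each class, and the 3 of smallest p where none was called are named; of lists, up to 4 called genes of smallest p. The procedure was tested on simulated data. Alternatives were other normalisations, filters, probe set choices, priors, thresholds and blocks, and leaving out arrays. Only 2 arrays a group limit the precision.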

Additional observations from a re-analysis of the deposited data

How the results depend on the processing

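None of the 58 calls (gene by comparison) changed direction under any alternative run. Counts over all genes also differed between runs. In the responses they fell where both null-labelled arrays numbered 1 were left out. At an added 2-fold limit 1006 of 14450 genes passed in the average, 922 in the null-labelled and 673 in the wild type response. Without the filter 1026 of 18193 genes passed in the null-labelled and 542 in the wild type response. With median centring 1714 and 806 of 14450 passed there, and with the trended prior 2592 passed in the wild type response. The average response was the most stable: 22 members passed in the reported fit, 19 to 25 when single arrays were left out, 9 at an added 2-fold limit and 14 without both null-labelled arrays numbered 1, an alternative added after the data were seen. The null-labelled response (18) had 1 to 18 with single arrays left out, 11 with median centring (5 higher, 6 lower), 11 at the 2-fold limit, 12 without the filter and 0 both in a fit of its 2 groups alone and without both arrays numbered 1. The wild type response (16) had 0 to 14 with single arrays left out, 8 without the filter, 11 with median centring, 25 with a trended and robust prior and 0 both in its 2 groups alone and without both arrays numbered 1. Gstm3 at 24 h, 1 member of 40, became 0 without the filter (adjusted p = 0.0531), in the 2 groups alone, without both arrays numbered 1 and without any single array (lowest and highest count 0), but 2 with damped signals (16 added to the linear signal, also added later; 30 of all genes) and 5 with the trended prior (109 of all genes, against 1 as reported). Averaged over both times the count of 1 became 0 without the filter, without both arrays numbered 1 and without any single array (0), and 4 with the trended prior (130 of all genes, against 5). The difference between responses had 1 call with the trended prior (10 of all genes) and 0 with single arrays left out, and the unoperated genotype comparison also 0 to 0. At an unadjusted p under 0.05 the reported limma fit held 24 members in the null-labelled response and 30 in the wild type. The shares of all genes there were 34% and 29.8%. Between the genotypes it held 15 members at 24 h and 16 over both times, against 11.7% and 12.7% of all genes.

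Replicate numbers are shared between groups, but over all genes tested, arrays with the same number did not deviate together. The correlations were -0.197 between genotypes at 24 h and -0.11 at 0 h, and 0.05 and -0.01 between times. Sult2a2 and Sult3a1 were nevertheless high on both null-labelled arrays numbered 1. Whether samples with the same number share an origin was not tested. With the replicate number as a block, 23, 9 and 7 members passed in the average, null-labelled and wild type responses. Of all 14450 genes 3279, 903 and 332 passed there. In the genotype comparisons at 24 h and over both times 0 and 0 members passed. With crossed numbers, chosen after seeing the data, the counts of members were 24, 16, 13, 0 and 0 in the same order. Of all genes 4010, 1859 and 1096 then passed in the responses. The cause of these changes was not tested. Fits that leave out an array assume that its partner varies like the other groups. Dim signals, such as Sult1e1 at 0 h and Sult1c2 at 24 h, lie near the filter limit, which limits their folds.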
